A study of Mus musculus with 6 samples.

Results

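The 10 genes described here were 7 carbonic anhydrases (*Car2*, *Car3*, *Car4*, *Car8*, *Car9*, *Car12* and *Car13*) and 3 members of the Slc4 transporter family (*Slc4a4*, *Slc4a7* and *Slc4a11*). They were taken by symbol from the 56748 genes listed for each uterus. All 10 passed the filter on low counts that kept 16605 genes for testing. The uteri came from females labelled C57BL/6, which the study kept on the C57BL/6J background. The females were older than 8 weeks, and the uteri were taken whole at 1600 h on day 4 of pregnancy. One group of 3 was the control, labelled WT and described in the study as floxed females without iCre or wildtype females. The other group of 3 was *Gp130* ecKO, with an iCre allele at *Ltf* and *Gp130* floxed on both alleles. *Ltf*-iCre deletes in the uterine epithelium, and *Ltf* is also expressed in some neutrophils and macrophages, in which *Gp130* may be deleted too. A whole uterus also holds many cells of other types, in which *Gp130* is left in place. The comparison asked which genes differed in uterine RNA when the epithelium lacked the receptor. The labels number the uteri within each group, and the p-values set the difference between the groups against the variation between uteri.

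Carbonic anhydrases turn carbon dioxide and water into bicarbonate and a proton and back. Some work in the cytosol, others in mitochondria, and others at the outer face of the cell membrane. Transporters of the Slc4 family carry bicarbonate across membranes, mostly with sodium or in exchange for chloride. Together with the Slc26 anion exchangers, the Cftr channel and the sodium-proton exchangers they set the pH of cells and of the fluid that epithelia secrete, the fluid of the uterine lumen included. Gp130 is the receptor subunit shared by leukemia inhibitory factor and related cytokines, and it signals through STAT3.

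Expected counts summed to between 13960748 (control 3) and 25906443 (control 2) per uterus. *Il6st*, the gene of Gp130, had 452 to 678 CPM in the control and 349.8 to 388 CPM in *Gp130* ecKO, where CPM are counts brought to a common library size with TMM factors. Markers of the epithelium were present in every uterus. They summed to 2209 to 3208 CPM in the control and 4484 to 6383 CPM in *Gp130* ecKO. Of these 10, 9 had a positive fitted change and 4 did not overlap between the groups. All 9 stroma markers had a negative fitted change (4149 to 5082 against 2209 to 2941 CPM summed), and 7 did not overlap. All 6 endothelium markers also had a negative fitted change (362 to 955 against 219 to 354 CPM), and 4 did not overlap. Over all tested genes 31.3% did not overlap, and edgeR's quasi-likelihood test called 0 of the markers in these lists. Smooth muscle markers summed to 606 to 2891 and 503 to 3077 CPM, and macrophage markers to 197 to 261 and 156 to 250 CPM, both with overlap. In RNA of whole uteri, fewer cells of a type and less RNA per cell cannot be told apart, and the part of these markers in the results that follow was not tested.

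*Car2* and *Car12* had the highest levels of the 10 genes in both groups. Levels of different genes were compared as TPM, the deposited value that is divided by transcript length. *Car2*, a fast cytosolic enzyme, had 203, 423 and 183 TPM in control 1 to 3 and 478, 339 and 385 TPM in *Gp130* ecKO 1 to 3. *Car12*, an enzyme of the cell membrane whose active site faces outward, had 99.97, 23.0 and 82.2 TPM in the control and 103, 138 and 134 TPM in *Gp130* ecKO. Control 2 was the lowest uterus for *Car12* and the highest control for *Car2*. The other 5 carbonic anhydrases lay between 0.57 and 8.97 TPM in every uterus.

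*Car2* and *Car12* together made up 95.4, 96.4 and 93.0% of the TPM of the 7 carbonic anhydrases in control 1 to 3. The same share was 98.6, 97.1 and 97.6% in *Gp130* ecKO 1 to 3, so the groups did not overlap (94.9 ± 1.77 and 97.7 ± 0.757%, SD, n = 3). Over all 16 carbonic anhydrases looked up, a sum chosen after seeing the data, the pair made up 91.8, 91.6 and 87.3% in the control and 94.8, 90.2 and 91.7% in *Gp130* ecKO, with overlap. Within the pair the balance was uneven. The ratio of *Car2* to *Car12* in TPM was 2.03, 18.4 and 2.23 in the control and 4.62, 2.45 and 2.88 in *Gp130* ecKO. Control 2 stood far from the other 5 uteri in this ratio, which was between 2.03 and 4.62 in those. The summed TPM of the 7 carbonic anhydrase genes was 317, 462 and 285 in the control and 589.7, 492 and 531 in *Gp130* ecKO, higher in every *Gp130* ecKO uterus. These sums are mainly *Car2*, and they are given as a description.

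Among these 3 transporters, *Slc4a7* had the highest level per length. It encodes NBCn1, which carries sodium and bicarbonate into the cell with no net charge. *Slc4a7* had 9.21, 8.0 and 13.9 TPM in the control and 15.4, 21.1 and 8.22 TPM in *Gp130* ecKO. *Slc4a4* lay between 1.08 and 5.32 TPM and *Slc4a11* between 0.23 and 3.66 TPM. The summed TPM of the transporters overlapped between the groups, at 11.5 to 22.8 and 9.80 to 24.8.

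In the control the order by mean TPM was *Car2*, *Car12*, *Slc4a7*, *Car13*, *Car4*, *Car3*, *Slc4a4*, *Slc4a11*, *Car9* and *Car8*. The ranges of *Car2* and *Car12* did not overlap, nor did those of *Car12* and *Slc4a7*, and every later pair of neighbours overlapped. In *Gp130* ecKO the order was *Car2*, *Car12*, *Slc4a7*, *Car13*, *Car4*, *Slc4a4*, *Car8*, *Car3*, *Car9* and *Slc4a11*. There the first 4 genes were separated from each other by their ranges, and so were *Car3* and *Car9*. *Car3* stood 6th in the control and 8th in *Gp130* ecKO.

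**Figure D1:**
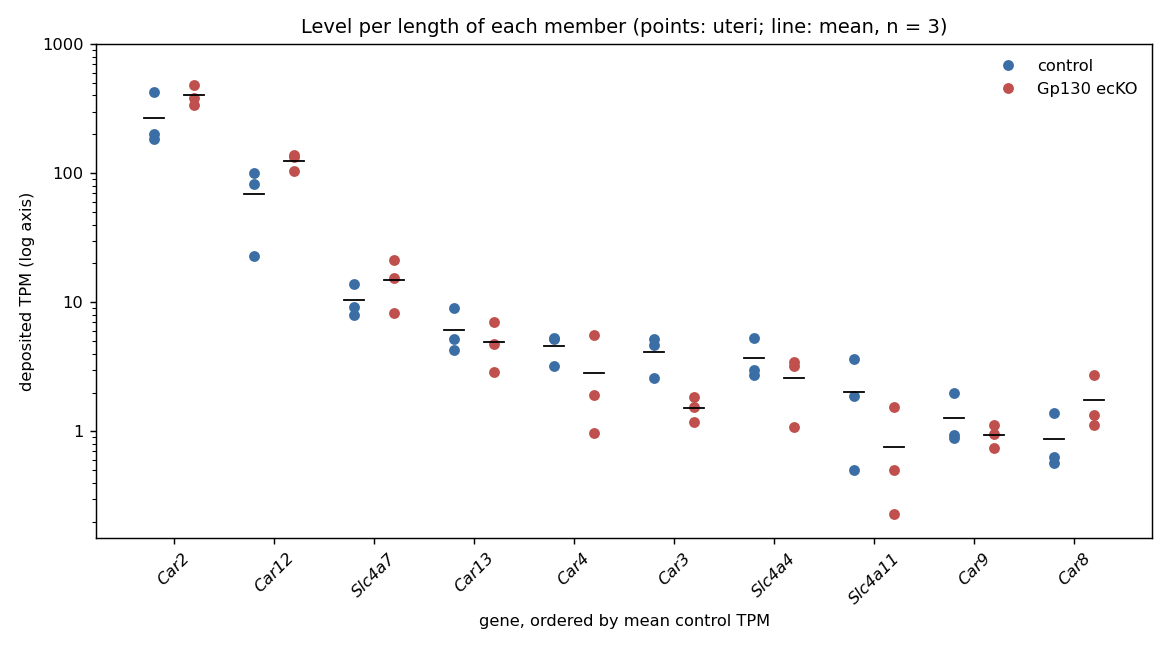
Deposited TPM of each gene on a log axis, ordered by the mean in the control, with 1 point per uterus (blue, control; red, *Gp130* ecKO) and a line at the mean of 3 uteri. *Car2* and *Car12* lie above the other genes in both groups, with control 2 low in *Car12* at 23.0 TPM.

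The fitted changes of the 10 genes had both signs. Of the 10, 5 had a positive and 5 a negative log2 change, the fitted log2 ratio of *Gp130* ecKO to the control. It is given with its standard error (SE) and the adjusted p of edgeR's quasi-likelihood test unless another test is named. Their median was −0.11 on the log2 scale, beside −0.05 over all tested genes, of which 7824 were positive and 8781 negative. A gene was called when it passed an FDR of 0.05 and changed by over 2-fold. By this rule 0 of the 10 were called, where 0.157% of all tested genes were (26 genes). At an unadjusted p below 0.05 there was 1 of 10, *Car3*, against 25.0% of tested genes in all. The groups did not overlap in CPM for *Car3* alone, where this held for 31.3% of all tested genes (15.6% with *Gp130* ecKO lower). The exact and likelihood ratio tests of edgeR and DESeq2 each called 1 of the 10, again *Car3*, with backgrounds of 7.54, 7.93 and 9.29% of tested genes.

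**Figure D2:**
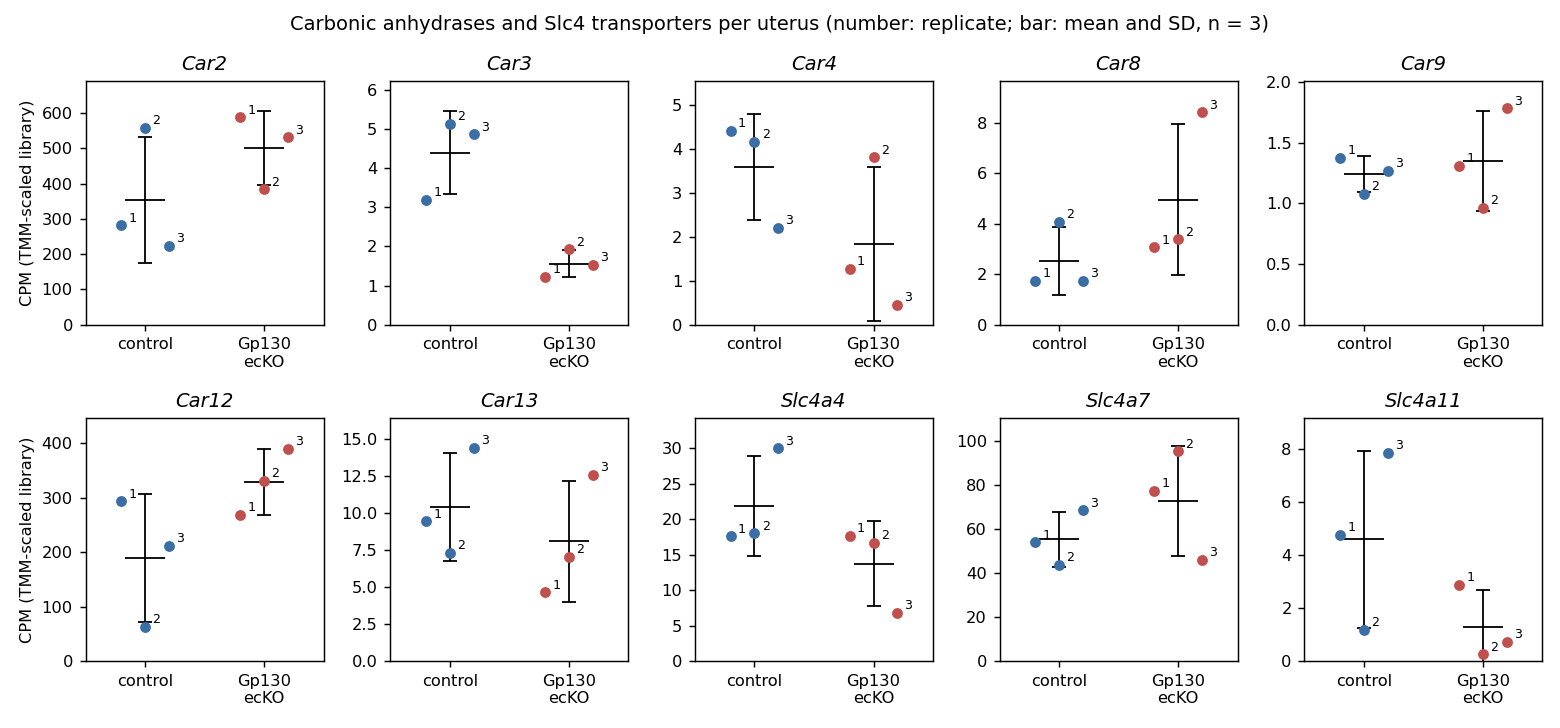
CPM of each of the 10 genes on linear axes from 0, with 1 numbered point per uterus and the mean and SD of each group (n = 3). The groups are apart in *Car3* and overlap in the other 9 panels.

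*Car2*, *Car3* and *Car13*, which encode 3 cytosolic enzymes, lie near each other on the plus strand of chromosome 3 of GRCm39. *Car13* lies at 14706783 to 14728077, *Car3* at 14928489 to 14937595 and *Car2* at 14951317 to 14967568. The 250 bases before the annotated start of the main transcript are shown for these 3 and for *Car12*, because *Car2* and *Car12* carry most of the RNA, *Car3* is the gene whose groups were apart, and *Car12* and *Car13* hold the letters of a STAT site. They were read from GRCm39 with starts from GENCODE M39, at chr3:14951077-14951326 for *Car2*, chr3:14928239-14928488 for *Car3*, chr9:66620467-66620716 for *Car12* and chr3:14706533-14706782 for *Car13*, all on the plus strand. Capitals mark TTCNNNGAA.
Car2: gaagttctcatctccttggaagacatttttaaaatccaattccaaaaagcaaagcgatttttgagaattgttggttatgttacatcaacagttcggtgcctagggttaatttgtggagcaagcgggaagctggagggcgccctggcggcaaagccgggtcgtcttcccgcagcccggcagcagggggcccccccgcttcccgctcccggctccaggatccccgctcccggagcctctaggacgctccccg
Car3: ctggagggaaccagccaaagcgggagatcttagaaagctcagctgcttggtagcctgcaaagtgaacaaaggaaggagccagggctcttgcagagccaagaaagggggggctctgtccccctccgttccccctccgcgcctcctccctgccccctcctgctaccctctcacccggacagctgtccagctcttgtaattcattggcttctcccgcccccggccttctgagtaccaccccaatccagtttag
Car12: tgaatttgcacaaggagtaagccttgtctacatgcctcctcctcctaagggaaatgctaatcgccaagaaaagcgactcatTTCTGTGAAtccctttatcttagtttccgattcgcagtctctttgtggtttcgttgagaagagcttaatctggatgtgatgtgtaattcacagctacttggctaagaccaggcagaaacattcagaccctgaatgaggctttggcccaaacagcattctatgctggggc
Car13: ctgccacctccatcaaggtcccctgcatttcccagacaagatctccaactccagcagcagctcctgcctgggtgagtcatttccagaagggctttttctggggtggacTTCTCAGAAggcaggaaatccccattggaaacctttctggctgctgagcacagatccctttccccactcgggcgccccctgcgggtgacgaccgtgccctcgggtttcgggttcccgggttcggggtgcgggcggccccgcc

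TTCNNNGAA, the letters of a STAT site, was searched on both strands and was found in 2 of the 10 promoters and in 7.7% of 21770 promoters of protein-coding genes of the same length. The match in *Car12* was TTCTGTGAA, with its first base at −169 from the start, and the match in *Car13* was TTCTCAGAA at −142. The main transcript of *Car12* starts inside the gene, which begins at 66615426. Which start is used in these uteri was not examined. The estrogen response element GGTCANNNTGACC was in 0 of 10 (0.1% of all promoters) and the hypoxia response core ACGTG in 0 of 10 (17.0%). TGTTCT, the core of a progesterone response element, was in 1 of 10, *Slc4a7* (14.3%). No match of one motif overlapped a match of another. The matches describe the sequence, and no binding was measured in these uteri.

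*Car3* (ENSMUSG00000027559) encodes a cytosolic enzyme of low activity that is best known from skeletal muscle and fat. It had 3.20, 5.13 and 4.87 CPM in control 1 to 3, and 1.22, 1.92 and 1.53 CPM in *Gp130* ecKO 1 to 3. The *Gp130* ecKO uteri all lay below the lowest control, with group means of 4.40 ± 1.05 and 1.56 ± 0.352 CPM (SD, n = 3). The fitted change was 2.80-fold lower in *Gp130* ecKO (log2 change −1.48 ± 0.36 SE, edgeR adjusted p = 0.0907). It did not pass the FDR threshold, and over the alternatives the adjusted p ran from 0.00565 (DESeq2) to 0.270. The exact two-sided permutation test gave p = 0.1, the lowest value possible with 3 uteri in each group. Leaving out single uteri, the log2 change lay between −1.66 and −1.31. The gene was weakly expressed, with counts of 73 to 133 in the control and 27 to 50 in *Gp130* ecKO.

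Adipocyte and skeletal muscle markers are set beside *Car3*. The adipocyte markers summed to 1.46, 8.37 and 6.87 CPM in control 1 to 3 and to 0.54, 1.69 and 1.16 CPM in *Gp130* ecKO 1 to 3, with overlap, and the 2 of 7 that were tested had a negative change. *Lep* was at 0 in every uterus and *Adipoq* was at most 0.66 CPM. *Cfd* had 0, 5.09 and 4.87 CPM in the control and 0.05, 0.96 and 0 CPM in *Gp130* ecKO. *Plin4* had 1.42, 1.74 and 0.67 CPM against 0.45, 0.38 and 1.16 CPM. Skeletal muscle markers summed to 13.8 to 20.7 CPM in the control and 6.54 to 17.9 CPM in *Gp130* ecKO, with overlap, and *Ckm*, *Myh7* and *Tnnc2* were near 0. Of the 5 tested, 4 had a negative change, and *Tnnt1* alone did not overlap, at 1.80 to 2.7 CPM in the control and 1.00 to 1.33 CPM in *Gp130* ecKO. The part of either cell type in the *Car3* values was not tested.

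*Car2* (ENSMUSG00000027562) had 281, 557 and 224 CPM in control 1 to 3, and 588, 384 and 532 CPM in *Gp130* ecKO 1 to 3. The *Gp130* ecKO uteri were above control 1 and control 3, and control 2 lay within their range. The group means were 354 ± 178 and 501 ± 105 CPM (SD, n = 3). The log2 change was 0.50 ± 0.36 (SE, edgeR adjusted p = 0.411), so no difference was called. Without control 2 it was 1.02, and without control 3 it was 0.26. Over the alternatives the adjusted p of *Car2* ran from 0.0727 to 0.709. Red cells also hold much *Car2*. The red cell markers summed to 338, 179 and 316 CPM in the control and 61.5, 324 and 47.8 CPM in *Gp130* ecKO, with overlap, and *Slc4a1* was at most 0.23 CPM. Their part in the *Car2* values was not tested.

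*Car13* (ENSMUSG00000027555), the remaining cytosolic enzyme, had 9.43, 7.33 and 14.4 CPM in the control uteri and 4.66, 7.04 and 12.6 CPM in the *Gp130* ecKO uteri. The highest value of each group was in replicate 3, and the ranges overlapped over most of their length. The log2 change was −0.35 ± 0.43 (SE, edgeR adjusted p = 0.629), −0.05 without control 3 and −0.79 without *Gp130* ecKO 3. These 3 genes of chromosome 3 had fitted changes of both signs, from −1.48 in *Car3* to 0.50 in *Car2*.

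*Car12* (ENSMUSG00000032373, chromosome 9, 66615426 to 66674186, plus strand) had 294, 63.6 and 212 CPM in control 1 to 3, and 269, 331 and 389 CPM in *Gp130* ecKO 1 to 3. Control 1 lay above *Gp130* ecKO 1, so the groups overlapped in CPM, while in TPM the highest control (99.97) was just below the lowest *Gp130* ecKO uterus (103). The means were 189.9 ± 117 and 329.7 ± 60.4 CPM (SD, n = 3), a log2 change of 0.80 ± 0.49 (SE, edgeR adjusted p = 0.339). Without control 2, the low uterus, the change was 0.41, and without control 1 it was 1.3. The range of the adjusted p over the alternatives was 0.232 to 0.492. The epithelium markers were higher in every *Gp130* ecKO uterus in sum, with fitted log2 changes of 1.32 for *Krt8* and 2.19 for *Krt19* (3.21 without control 2). *Epcam* and *Foxa2* had −0.19 and 0.26, and both changed sign with single uteri left out, over −0.36 to 0.17 and −0.27 to 1.00. Their part in the *Car12* values was not tested.

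*Car4* and *Car9* encode 2 more enzymes of the outer membrane face, *Car4* held by a lipid anchor and *Car9* by a membrane span. *Car4* (ENSMUSG00000000805, chromosome 11, 84848020 to 84856879, plus strand) had 4.41, 4.16 and 2.20 CPM in the control and 1.27, 3.81 and 0.46 CPM in *Gp130* ecKO. *Gp130* ecKO 2 lay among the controls, and the other *Gp130* ecKO uteri lay below them. The log2 change was −0.96 ± 0.69 (SE, edgeR adjusted p = 0.407), −2.08 without *Gp130* ecKO 2 and −0.48 without *Gp130* ecKO 3. *Car9* (ENSMUSG00000028463, chromosome 4, 43506966 to 43513729, plus strand), a known target of the hypoxia response, had 1.38, 1.08 and 1.27 CPM in the control and 1.31, 0.96 and 1.78 CPM in *Gp130* ecKO. Its ranges overlapped throughout, and the log2 change of 0.12 ± 0.39 (SE, edgeR adjusted p = 0.860) went to −0.10 without *Gp130* ecKO 3. Of the 75-base stretches of *Car9*, 17.0% also occur in *Gm12454* on the opposite strand, and counts of *Car9* were at most 42.95.

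*Car8* (ENSMUSG00000041261, chromosome 4, 8141533 to 8239088, minus strand) encodes a relative of the carbonic anhydrases that lacks the enzyme activity. It had 1.74, 4.09 and 1.73 CPM in the control and 3.07, 3.38 and 8.41 CPM in *Gp130* ecKO. *Gp130* ecKO 3 was the highest uterus, and control 2 lay above the other *Gp130* ecKO uteri. The log2 change was 0.96 ± 0.55 (SE, edgeR adjusted p = 0.311), 0.36 without *Gp130* ecKO 3 and 1.55 without control 2.

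**Figure D3:**
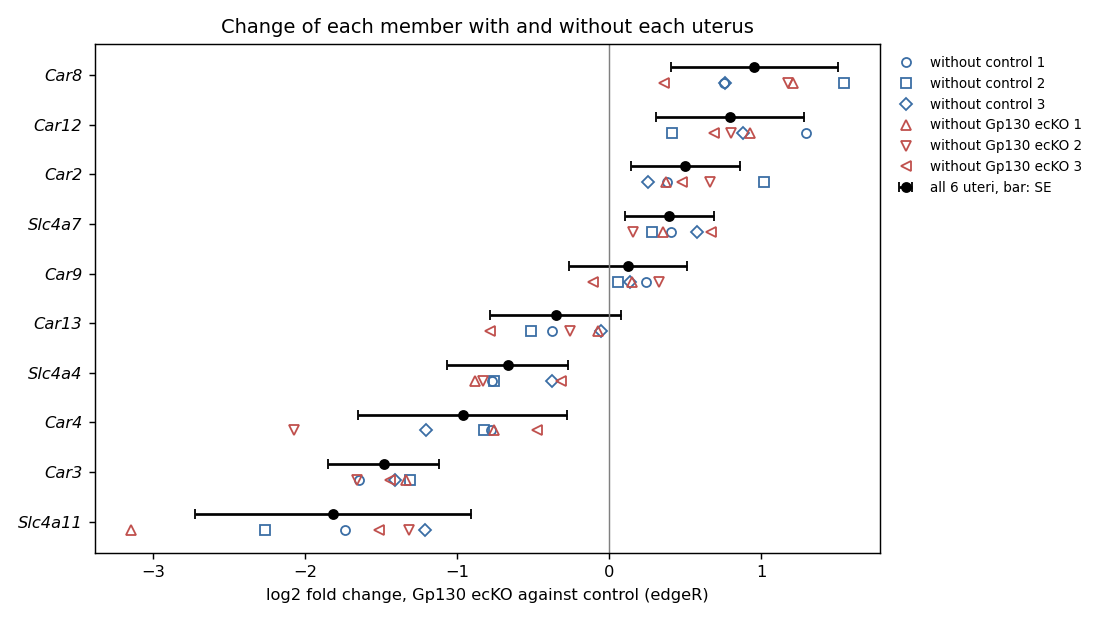
Log2 change (*Gp130* ecKO against control) of each gene over all 6 uteri, as a black point with its standard error, and without 1 uterus at a time, as open symbols. *Car3* keeps within −1.66 to −1.31, while *Slc4a11*, *Car4*, *Car8*, *Car12* and *Car2* shift with single uteri and *Car9* changes sign.

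*Slc4a11* (ENSMUSG00000074796, chromosome 2, 130526028 to 130539898, minus strand) belongs to the Slc4 family by sequence and is better known as a proton and water pathway than as a bicarbonate carrier. It had 4.77, 1.20 and 7.87 CPM in control 1 to 3, and 2.89, 0.27 and 0.75 CPM in *Gp130* ecKO 1 to 3. Control 2 was below *Gp130* ecKO 1, so the groups overlapped. The means were 4.61 ± 3.34 and 1.3 ± 1.4 CPM (SD, n = 3), a log2 change of −1.82 ± 0.91 (SE, edgeR adjusted p = 0.253). It was the most negative fitted change of the 10 and had the widest standard error. Without *Gp130* ecKO 1 it was −3.15, and without control 3 it was −1.21. The adjusted p over the alternatives was 0.133 to 0.521. The study lists *Slc4a11* among its lower genes, a list drawn from these uteri, so its direction here is not independent of that list.

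*Slc4a4* and *Slc4a7* both encode sodium bicarbonate cotransporters, the first electrogenic and the second electroneutral. *Slc4a4* (ENSMUSG00000060961, chromosome 5, 89034345 to 89387514, plus strand) had 17.6, 18.0 and 30.0 CPM in the control and 17.6, 16.7 and 6.84 CPM in *Gp130* ecKO. Control 1, control 2 and *Gp130* ecKO 1 and 2 were nearly level, and control 3 lay above them and *Gp130* ecKO 3 below. The log2 change was −0.67 ± 0.40 (SE, edgeR adjusted p = 0.329) and −0.32 without *Gp130* ecKO 3. *Slc4a7* (ENSMUSG00000021733, chromosome 14, 7669819 to 7767484, minus strand) had 53.9, 43.7 and 68.5 CPM in the control and 77.2, 95.1 and 45.9 CPM in *Gp130* ecKO. *Gp130* ecKO 3 lay below control 1 and control 3, and the other *Gp130* ecKO uteri lay above all controls. Its log2 change was 0.39 ± 0.29 (SE, edgeR adjusted p = 0.427), between 0.16 and 0.67 with each uterus left out.

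The deposited tables also give a length for each gene, the mean length of its transcripts weighted by their estimated shares, so that a different length means a different estimated mix of transcripts. *Slc4a11* had 3179.9, 3196 and 3056 bases in control 1 to 3 and 2661, 1832 and 1932 bases in *Gp130* ecKO. Every *Gp130* ecKO uterus was shorter, but these mixes rest on counts of 64, 7 and 18 reads and were not tested. *Car9* had 1991, 1589 and 939 bases in the control and 2023 bases in all *Gp130* ecKO uteri. For *Car9* the exact two-sided permutation test gave p = 0.1 (0.56 after Benjamini-Hochberg adjustment over 7 genes compared). The other 6 genes compared overlapped between the groups, and over all 11988 tested genes with a varying length and at least 10 counts in every uterus the groups did not overlap in 20.4%. Without that minimum, which *Slc4a11* did not reach, the share was 19.4%. *Car2* and *Car12*, the most abundant, had means of 1783 against 1784 bases and of 3671 against 3682 bases. *Car8* and *Car13* were listed with 1 length in all uteri.

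**Figure D4:**
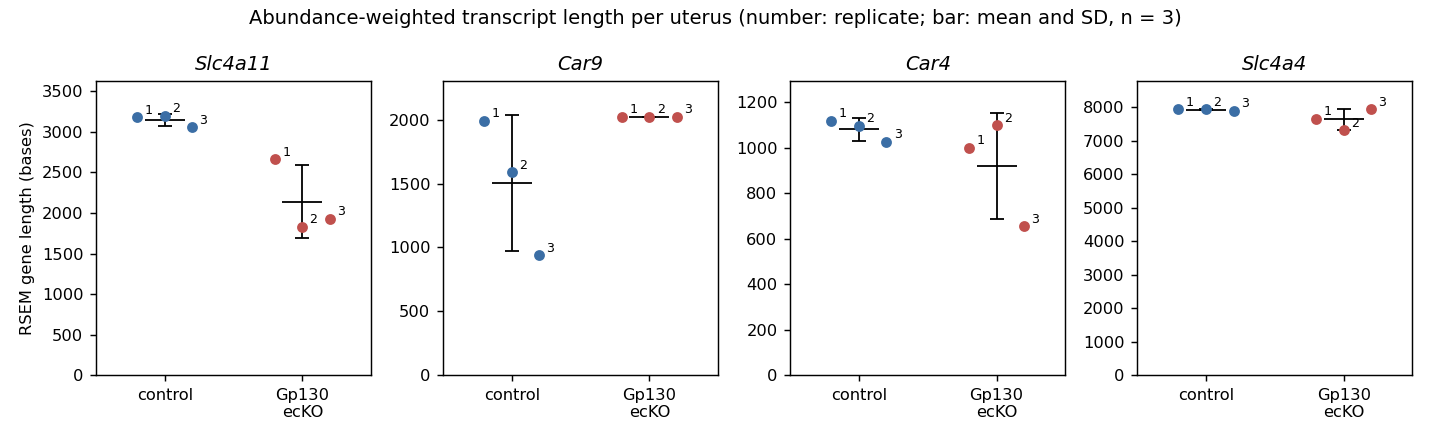
Length of *Slc4a11*, *Car9*, *Car4* and *Slc4a4* in bases, weighted over transcripts by their estimated shares, per numbered uterus with the mean and SD (n = 3), on axes from 0. *Slc4a11* is shorter in all *Gp130* ecKO uteri, and *Car9* is at 2023 bases in all of them.

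In 4 lists of other genes of these pathways, edgeR's quasi-likelihood test called 0 genes. The counts in each list stand beside the shares over all tested genes, which were 25.0% with an unadjusted p below 0.05, 9.29% called by DESeq2, 7.54% called by the exact test and 31.3% without overlap. Of 9 other carbonic anhydrases, 4 were tested, 2 with a positive and 2 with a negative change. An unadjusted p below 0.05 was found for 1, and DESeq2 and the exact test called 1. That gene was *Car5b*, a mitochondrial enzyme. It had 8.98, 27.4 and 4.47 CPM in the control and 34.9, 55.4 and 67.1 CPM in *Gp130* ecKO, with all *Gp130* ecKO uteri higher. Its log2 change was 1.93 ± 0.62 (SE, edgeR adjusted p = 0.125), and DESeq2, the 2 other edgeR tests and the fit without control 2 called it. The change was 2.98 without control 2 and 1.52 without control 3. *Car10* was at 0 in every uterus, and *Car1*, the other main red cell enzyme, was at 0.04 CPM in control 1 and 0 elsewhere.

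Of 7 other Slc4 genes, 3 were tested, 1 with a positive and 2 with a negative change. An unadjusted p below 0.05 was found for 1 in each direction, and DESeq2 and the exact test called 1. *Slc4a2*, the widespread chloride-bicarbonate exchanger AE2, had 75.7, 88.2 and 55.7 CPM in the control and 266, 139 and 101 CPM in *Gp130* ecKO. All *Gp130* ecKO uteri were higher (log2 change 1.20 ± 0.37 SE, edgeR adjusted p = 0.118), and DESeq2 and the exact and likelihood ratio tests called it. Without *Gp130* ecKO 1 the change was 0.71. Of its 75-base stretches, 30.8% also occur on the opposite strand, in *Fastk* or *Gm22333*. Per length, *Slc4a2* had 28.3 to 32.9 TPM in the control and 36.8 to 99.6 TPM in *Gp130* ecKO, above *Slc4a7* in every uterus.

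Of 11 genes for the Slc26 exchangers and *Cftr*, 8 were tested, 3 with a positive and 5 with a negative change. An unadjusted p below 0.05 was found for 3 with a positive and 1 with a negative change, DESeq2 called 2 and edgeR's exact test called 1. *Slc26a6*, an apical chloride-bicarbonate exchanger, had the largest fitted change among the tested genes of these acid-base lists, the 10 genes above included. In control 1 to 3 it stood at 129.9, 14.7 and 99.1 CPM, against 2.03, 1.77 and 2.86 CPM in *Gp130* ecKO 1 to 3. It was 36.5-fold lower (log2 change −5.19 ± 0.79 SE, edgeR adjusted p = 0.0548). DESeq2, the exact and likelihood ratio tests, the fit with no filter and the fit without control 2 (adjusted p = 0.00327) called it. Of its stretches, 25.7% also occur in *Gm57039* on the opposite strand, and the study lists it among its lower genes from these uteri. *Cftr*, the chloride and bicarbonate channel, had 6.80, 4.47 and 11.1 CPM in the control and 17.2, 15.2 and 15.3 CPM in *Gp130* ecKO. The *Gp130* ecKO uteri were all higher and close together (log2 change 1.1 ± 0.35 SE, adjusted p = 0.124 in edgeR and 0.0302 in DESeq2). *Slc26a9* was also apart, at 0.19 to 0.61 CPM against 0.88 to 1.62 CPM.

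Of 14 sodium-proton exchangers and partner proteins, 11 were tested, 8 with a positive and 3 with a negative change, and 5 did not overlap. An unadjusted p below 0.05 was found for 3 with a positive and 2 with a negative change, DESeq2 called 2 and the exact test called 1. *Ahcyl2*, a relative of the protein IRBIT that binds and activates *Slc4a4*, had 96.1, 79.8 and 56.4 CPM in the control and 161, 141 and 131 CPM in *Gp130* ecKO (log2 change 0.90 ± 0.22 SE, edgeR adjusted p = 0.0917). *Nherf2*, a scaffold for exchangers and for Cftr, was lower in every *Gp130* ecKO uterus, with 95.5, 141 and 70.0 CPM against 57.8, 60.2 and 58.7 CPM. The organelle exchanger *Slc9a7* had 0.49, 0.27 and 0.13 CPM against 0.99, 0.92 and 2.49 CPM. *Slc9a5* had 2.31, 1.20 and 7.07 CPM against 0.59, 1.15 and 0.58 CPM, with control 2 barely above *Gp130* ecKO 2. The adjusted p of these 3 genes was 0.125, 0.111 and 0.140 with edgeR's quasi-likelihood test. *Slc9a7* was called by DESeq2 (adjusted p = 0.0373) and by the exact and likelihood ratio tests, and *Slc9a5* by DESeq2 (adjusted p = 0.0352). The log2 change of *Slc9a5* was −2.12 and −1.16 without control 3.

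**Figure D5:**
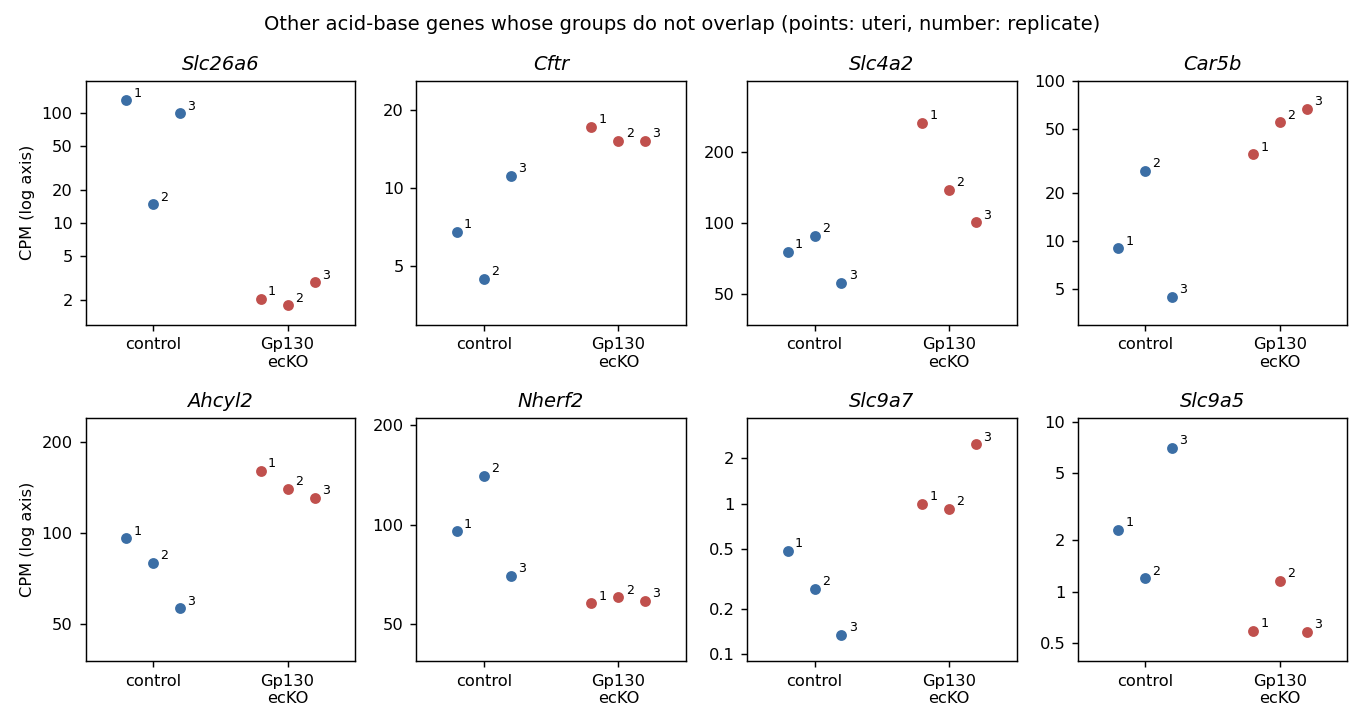
CPM on log axes of 8 other acid-base genes whose groups do not overlap, with 1 numbered point per uterus (blue, control; red, *Gp130* ecKO). *Slc26a6*, *Nherf2* and *Slc9a5* are lower and *Cftr*, *Slc4a2*, *Car5b*, *Ahcyl2* and *Slc9a7* higher in all *Gp130* ecKO uteri, and control 2 has the lowest *Slc26a6* of the control, 14.7 CPM.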

How the data were processed

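Poly(A) RNA of whole uteri was read as single reads from libraries that keep the strand. The authors trimmed reads with fastp 0.23.2, removed ribosomal RNA reads with SortMeRNA, mapped to GRCm39 with STAR 2.7.10a and ran RSEM 1.3.3. The annotation version and the use of strand in counting were not given in the sources used here. The deposited expected counts are not normalized. The TPM and FPKM, which the authors' RSEM run divided by length and depth, entered no test. The deposited gene lengths are weighted by the estimated transcript shares.

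Expected counts were rounded and tested with edgeR 4.0.16 under R 4.3.3 (filterByExpr, TMM, quasi-likelihood F test without the legacy setting, Benjamini-Hochberg adjustment over 16605 genes), since the study names edgeR but no test. Genes were called at an FDR below 0.05 and more than 2-fold. The standard error of a log2 change is its size over the root of F. Exact two-sided permutation tests used log2(CPM + 0.5). RSEM lengths were compared for genes with at least 10 counts in every uterus. Alternatives were DESeq2 1.42.0, edgeR's exact and likelihood ratio tests, the legacy setting, RLE and upper quartile scaling, no filter, counts left unrounded, a block for the replicate number, FPKM for TPM and each uterus left out. Names and coordinates came from GENCODE M39, which held 56017 of 56748 identifiers. The genes and lists were chosen with earlier results of these data known. From each list, up to 4 genes without overlap were named, in order of fold change. Other list genes named were chosen after their values were seen. The scripts were tested on simulated counts in which 200 genes were changed 4-fold. The quasi-likelihood test called 116 of these and 10 unchanged genes. The exact test called 148 and 38, and DESeq2 called 155 and 58.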

Additional observations from a re-analysis of the deposited data

How the results depend on the processing

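The number of called genes, 26 with all uteri, was 1542 with DESeq2, 1252 with the exact test, 1317 with the likelihood ratio test, 7 with the legacy setting, 105 with no filter and 6 with the replicate block. With each uterus left out it ranged from 1 to 892, the highest without control 2. RLE scaling gave 27, upper quartile scaling 22 and unrounded counts 26. Of the 10 genes described, 0 were called with all uteri, 1 with DESeq2, 1 with the exact test and 1 with the likelihood ratio test, *Car3* each time, and 0 under the other alternatives, the replicate block and each uterus left out among them. The labels do not say whether the replicate numbers pair the uteri. Deviations of same-numbered uteri from their group means correlated at 0.10, 0.07 and −0.20 over 16605 genes. Those of other-numbered uteri correlated at −0.31 to 0.22. The same-numbered values lie within that range and cannot decide the question, so the block is given for its counts only. The log2 change of *Car9* ran from −0.10 (without *Gp130* ecKO 3) to 0.33 with each uterus left out. No other of the 10 genes changed sign under any alternative listed. The share of *Car2* and *Car12* in the carbonic anhydrases was 94.2 to 95.9% in the control and 97.3 to 98.1% in *Gp130* ecKO with each uterus left out, and 90.2 and 92.2% over all 16 carbonic anhydrases, a sum chosen after seeing the data. The cause of the differences between the tests was not tested. Control 3 had the fewest reads, and the widest standard errors of the 10 genes were those of *Slc4a11*, with 7 counts in *Gp130* ecKO 2, and *Car4*, with 11 in *Gp130* ecKO 3.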

Other observations

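The hypoxia response genes, to which *Car9* belongs by its known regulation, had no common direction. Of the 12 tested, 4 had a positive and 8 a negative log2 change in *Gp130* ecKO, with a median of −0.17 beside −0.05 over all tested genes. edgeR's quasi-likelihood test called 0 of them, DESeq2 called 2 and the exact test 1, and an unadjusted p below 0.05 was found for 2 with a positive and 2 with a negative change. The groups did not overlap for 3 genes. Over all tested genes these shares were 9.29% for DESeq2, 7.54% for the exact test, 25.0% for the unadjusted p and 31.3% for no overlap. *Slc2a1*, the glucose transporter GLUT1, had 67.0, 42.1 and 34.6 CPM in the control and 71.7, 82.8 and 131 CPM in *Gp130* ecKO. Its log2 change was 0.99 (adjusted p = 0.127 with edgeR's quasi-likelihood test), and DESeq2 called it (adjusted p = 0.0477). *Pdk1*, a pyruvate dehydrogenase kinase, had 10.9, 23.5 and 19.3 CPM against 27.8, 30.6 and 27.9 CPM. *P4ha1*, a subunit of the collagen prolyl hydroxylase, was lower, at 44.1, 50.6 and 63.5 CPM against 31.6, 41.1 and 24.8 CPM. *Ndrg1* had the largest fitted change of the list (log2 change −2.17, adjusted p = 0.126 with edgeR's quasi-likelihood test) and was chosen after its values were seen. Its values overlapped, with 811, 103 and 329 CPM in the control and 143, 61.6 and 71.1 CPM in *Gp130* ecKO, since control 2 lay below *Gp130* ecKO 1. DESeq2 (adjusted p = 0.0127), the exact and likelihood ratio tests and the quasi-likelihood test without control 2 called *Ndrg1*, and its log2 change lay between −2.64 and −1.20 when single uteri were left out.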
